A study of Homo sapiens with 17 samples.

Results

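H3K4me1 and H3K27ac were compared in control cells of H1, a long-established line of human pluripotent stem cells, to ask where the strongest peaks of each mark lay and which places carried 1 mark without the other. The 4 libraries were the 2 whose deposited peak lists are named H3K4me1 and the 2 whose lists are named H3K27ac, of 17 libraries in the series. All 4 came from cells that had received virus with an shRNA against luciferase (shLUC), packaged in 293T cells, followed by puromycin selection. A further 8 libraries of the same antibodies came from H1 cells treated the same way with an shRNA against HNRNPU (shHNRNPU#1 or shHNRNPU#2, with 2 repeats for each antibody). POLIIS2P, the name the labels give to an antibody, was profiled in 2 shLUC libraries, and HNRNPU, a nuclear RNA-binding protein, in 2 libraries of untransfected H1 cells. Nothing in the labels says whether repeats came from separate cultures, so p-values measure the spread between libraries, which may be technical. Read depth is not given in the sources used here.

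The antibody names of the 4 control libraries need to be read with care, because the sample titles give the opposite name to the file name in each of them. The file names were followed, and the libraries are called file-named H3K4me1 and file-named H3K27ac. Under the titles, the names H3K4me1 and H3K27ac change places in every statement about the control libraries, and the number of places with both marks changes slightly. In the shHNRNPU libraries the title and the file name give the same antibody, and summits were compared with those. Overlap is the share of the 20000 strongest summits of a library within 250 bp of a strong summit of the other library, averaged over both directions. It was 68.2% to 73.5% between file-named H3K4me1 control and H3K4me1 shHNRNPU libraries, and 18.2% to 25.8% with H3K27ac shHNRNPU libraries. For the file-named H3K27ac control libraries the overlaps were 20.9% to 24.3% with H3K4me1 and 46.4% to 55.5% with H3K27ac. Under both file names the overlap was thus higher with the shHNRNPU libraries of the same antibody. The control repeats shared 73.4% of strong summits for file-named H3K4me1 and 55.1% for file-named H3K27ac. Among the primary antibodies that the labels list are those against HNRNPU and H3K27ac, and H3K4me1 and POLIIS2P are not on that list.

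Both marks sit on the tail of histone H3. H3K4me1, a single methyl group on a lysine, is placed largely by KMT2C and KMT2D and is known from enhancers, whether active or poised, and from the flanks of promoters. H3K27ac, an acetyl group placed by EP300 and CREBBP, is known from active promoters and active enhancers, so a place with H3K4me1 and no H3K27ac is often read as a poised or weak enhancer. In CUT&Tag an antibody bound to chromatin directs a transposase to cut the DNA beside it, and each summit is the base of highest signal in a called peak. Each summit carries a score that ranks it within its own list. The file-named H3K4me1 lists held 179137 and 181357 summits and the file-named H3K27ac lists 62449 and 90914. At rank 20000 the score was 23.5 and 25.8 for file-named H3K4me1 and 6.16 and 9.40 for file-named H3K27ac, so equal list lengths did not mean equal scores. A strong summit is 1 of the 20000 with the highest scores in its library, and a site is a strong summit of the first repeat with a strong summit of the second within 250 bp. There were 14677 file-named H3K4me1 sites and 11021 file-named H3K27ac sites.

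Promoters that held the strongest sites of each kind show the sequence under the marks. The 250 bases before a listed gene start are given 5′ to 3′ on the gene's strand, in lower case with each CG dinucleotide, the target of DNA methylation in human DNA, in capitals. They are RefSeq sequences of GRCh38.p14, and each one holds the strong summits of both repeats. The first pair carried file-named H3K27ac with no file-named H3K4me1 among the 60000 strongest, the next pair both marks, and the last pair file-named H3K4me1 with no file-named H3K27ac among the 60000 strongest.
FLCN, chr17:17237169-17237418, minus strand: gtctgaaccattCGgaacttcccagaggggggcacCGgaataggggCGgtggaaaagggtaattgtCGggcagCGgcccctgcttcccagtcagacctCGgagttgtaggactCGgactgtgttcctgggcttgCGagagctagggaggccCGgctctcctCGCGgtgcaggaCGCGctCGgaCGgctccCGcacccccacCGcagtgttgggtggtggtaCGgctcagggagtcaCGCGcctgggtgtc
RHBDD3, chr22:29267982-29268231, minus strand: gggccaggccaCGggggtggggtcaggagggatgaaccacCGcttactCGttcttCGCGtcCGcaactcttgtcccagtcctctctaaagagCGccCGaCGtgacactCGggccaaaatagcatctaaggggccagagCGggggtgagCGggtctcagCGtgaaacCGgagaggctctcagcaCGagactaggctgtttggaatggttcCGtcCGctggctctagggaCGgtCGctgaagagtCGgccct
PELI1, chr2:64144421-64144670, minus strand: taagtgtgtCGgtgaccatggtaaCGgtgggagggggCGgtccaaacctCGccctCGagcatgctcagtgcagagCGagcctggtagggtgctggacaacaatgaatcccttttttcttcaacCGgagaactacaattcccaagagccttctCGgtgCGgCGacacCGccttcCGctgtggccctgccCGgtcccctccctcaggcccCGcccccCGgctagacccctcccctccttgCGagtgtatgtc
SELENOT, chr3:150603071-150603320, plus strand: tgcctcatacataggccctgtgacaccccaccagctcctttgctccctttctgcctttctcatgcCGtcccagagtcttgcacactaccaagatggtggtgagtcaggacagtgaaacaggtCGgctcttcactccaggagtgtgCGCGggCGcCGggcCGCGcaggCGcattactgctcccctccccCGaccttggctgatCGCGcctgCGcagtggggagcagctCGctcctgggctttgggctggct
ARID5B, chr10:62049107-62049356, plus strand: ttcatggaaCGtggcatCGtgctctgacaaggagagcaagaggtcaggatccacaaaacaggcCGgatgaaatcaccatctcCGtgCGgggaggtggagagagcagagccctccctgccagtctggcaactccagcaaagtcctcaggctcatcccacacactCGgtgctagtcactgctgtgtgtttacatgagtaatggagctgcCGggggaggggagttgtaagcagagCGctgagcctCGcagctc
PDE4D, chr5:59356971-59357220, minus strand: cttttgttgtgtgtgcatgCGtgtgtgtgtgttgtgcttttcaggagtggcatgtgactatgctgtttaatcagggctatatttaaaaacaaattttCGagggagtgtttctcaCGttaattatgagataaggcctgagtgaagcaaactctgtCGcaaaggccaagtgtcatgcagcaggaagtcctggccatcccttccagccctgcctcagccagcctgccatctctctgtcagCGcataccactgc

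These 250 bases held 20 CG dinucleotides in each of FLCN and RHBDD3, 16 in PELI1, 14 in SELENOT, 9 in ARID5B and 5 in PDE4D. FLCN encodes folliculin, a tumour suppressor in nutrient signalling, and its promoter held the file-named H3K27ac summits of rank 5 and 6 in the repeats, both 43 bp before the start. RHBDD3 starts beside EWSR1, which encodes an RNA-binding protein and is read in the opposite direction, and their shared stretch held the summits of rank 4 and 7. PELI1, a ubiquitin ligase of innate immune signalling, held file-named H3K4me1 summits of rank 5 and 9 and file-named H3K27ac summits of rank 622 and 113, within 182 to 241 bp of the start. ARID5B, a DNA-binding partner of a histone demethylase, and PDE4D, a phosphodiesterase that degrades cyclic AMP, held file-named H3K4me1 summits of rank 93 and 336 and of rank 356 and 171. Over all listed starts the same difference in CG content was seen. In the 300 bases from 250 before to 50 after a start, the median number of CG was 26 at the 2536 starts with file-named H3K27ac only, 20 at the 390 starts with both marks and 7 at the 248 starts with file-named H3K4me1 only. At least 10 CG were present in 95.9%, 74.1% and 39.1% of these starts, compared with 70.1% of all 22199 starts and 50.6% of those with neither mark. Starts were put in a class by sites within 1000 bp, and the counts describe letters in these windows, on both strands at once because CG reads the same on each.

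The file-named H3K4me1 and H3K27ac summits differed in how close they lay to genes. Gene ends here are the first and last bases of protein-coding genes. At most 1000 bp from such an end lay 7.32% and 6.90% of strong file-named H3K4me1 summits and 23.2% and 25.6% of strong file-named H3K27ac summits. The groups did not overlap. The means were 7.11% ± 0.301 and 24.4% ± 1.69 (SD, n = 2 each), which differ by −17.3 points, and an exact two-sided permutation test gave p = 0.333, the smallest value that 2 libraries against 2 allow. In the shHNRNPU cells, with titles and file names in accord, the shares were 7.63% ± 0.327 and 21.9% ± 1.52 (SD, n = 4 each), a difference of −14.2 points (exact permutation p = 0.0286, the smallest that 4 against 4 allow). The 2 shRNAs were pooled in this test and in every later test on shHNRNPU cells, so the 4 libraries are 2 repeats of each of 2 shRNAs.

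Most strong summits of both marks lay far from gene ends. Between the ends of a gene and away from them lay 55.2% and 55.4% of file-named H3K4me1 and 49.7% and 47.7% of file-named H3K27ac, and outside genes 37.5% and 37.7% against 27.1% and 26.7%. The median distance to a gene end was 29466 and 29790 bp for file-named H3K4me1 and 16145 and 14442 bp for file-named H3K27ac, a difference of 0.96 in log2 distance (exact permutation p = 0.333, n = 2 each). In shHNRNPU cells it was 0.77 (exact permutation p = 0.0286, n = 4 each). The gap came from the closest distances. Within 250 bp of an end lay 3.92% and 3.51% of file-named H3K4me1 against 14.4% and 16.6% of file-named H3K27ac, between 2000 and 5000 bp the order was turned, with 7.94% and 8.06% against 6.11% and 6.10%, and beyond 50000 bp lay 37.6% and 37.7% against 28.0% and 27.1%.

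**Figure D1:**
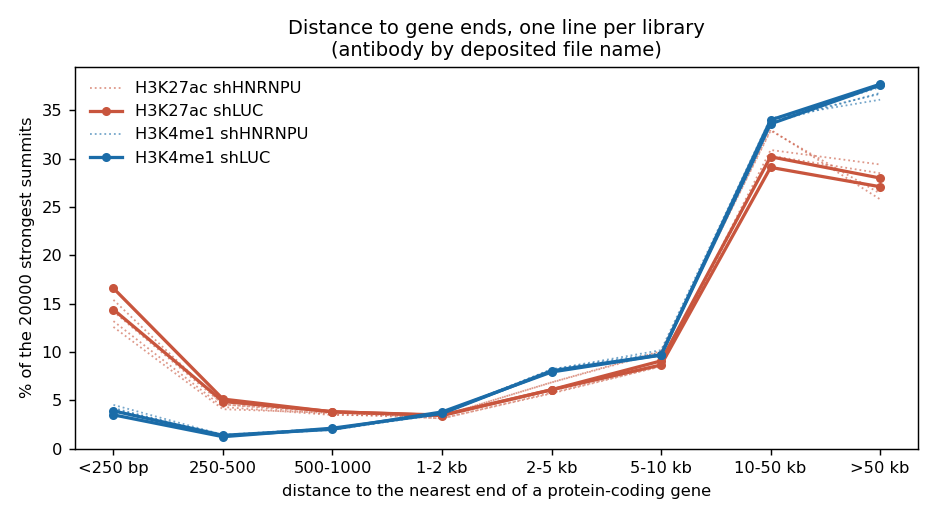
Share of the 20000 strongest summits (y axis, percent) by distance to the nearest gene end (x axis, classes of distance), with 1 line per library. Solid lines with points are the 4 shLUC libraries by file name and dotted lines the 8 shHNRNPU libraries, and file-named H3K27ac lies above file-named H3K4me1 within 1000 bp and below it beyond 10 kb.

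Gene ends were split into starts and stops for the 15843 protein-coding genes whose strand and starts the RefSeq promoter table lists, a split added after the reference tables had been seen. Within 1000 bp of a listed start lay 5.96% and 5.68% of file-named H3K4me1 and 20.9% and 23.2% of file-named H3K27ac summits, whereas 1.85% and 1.75% against 1.57% and 1.49% lay near a stop alone. The excess of file-named H3K27ac was therefore at starts. By gene, a file-named H3K27ac site lay at the start of 3141 genes and at the stop of 288, and a file-named H3K4me1 site at the start of 559 and the stop of 330. In the 200 bp before a start there were 28.9 and 25.9 file-named H3K4me1 summits per 1000 starts and 68.2 and 75.0 of file-named H3K27ac. In the 200 bp after it the values were 9.41 and 9.60 against 66.8 and 78.5. File-named H3K27ac was thus about level on both sides of the start, and file-named H3K4me1 was lower after the start than before it.

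**Figure D2:**
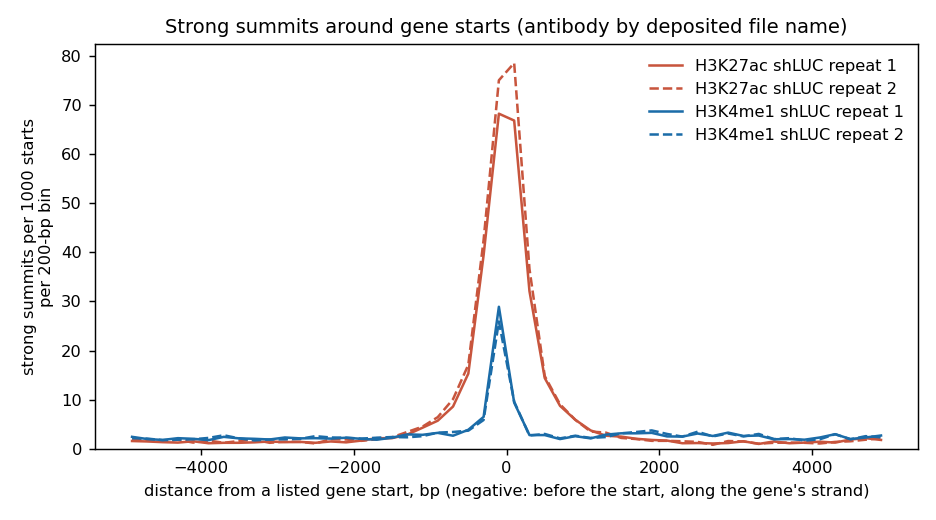
Strong summits per 1000 listed gene starts in bins of 200 bp (y axis) by distance from the start along the gene's strand (x axis, bp) in the 4 shLUC libraries by file name. File-named H3K27ac peaks on both sides of the start at 66.8 to 78.5, and file-named H3K4me1 reaches 25.9 and 28.9 before the start and 9.41 and 9.60 after it.

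Strong file-named H3K4me1 summits more often had a strong summit of their own library nearby. A neighbour within 5000 bp was found for 12.5% and 12.2% of them and for 9.08% and 8.70% of file-named H3K27ac summits, which is 3.44 points more (exact permutation p = 0.333, n = 2 each). In shHNRNPU cells the difference was 3.18 points (exact permutation p = 0.0286, n = 4 each). Without the first repeat of H3K4me1 in shHNRNPU#2 it was 2.76 points with an exact permutation p of 0.0571. The median distance to the nearest such summit was 24526 and 23974 bp for file-named H3K4me1 and 28406 and 29067 bp for file-named H3K27ac. In shHNRNPU cells these medians overlapped, with H3K4me1 at 22974 to 25110 bp and H3K27ac at 24946 to 29990 bp.

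Strong summits of the 2 marks were mostly apart. Within 1000 bp of a strong file-named H3K27ac summit lay 22.9% to 25.1% of file-named H3K4me1 summits over the 4 pairs of libraries, and 22.8% to 25.0% the other way round. When 2 such summits were within 1000 bp, their median offset was 41 to 47 bp, so the marks tended either to share a summit or to be far apart. The median distance over all summits was 22614 to 23720 bp from file-named H3K4me1 to file-named H3K27ac and 24392 to 25663 bp in the other direction. The sharing depended on place. Of file-named H3K4me1 summits at a gene end, 37.9% to 43.8% had file-named H3K27ac within 1000 bp, against 21.6% to 23.9% of those elsewhere. For file-named H3K27ac the order was the opposite, with 11.3% to 12.5% at gene ends and 26.0% to 29.6% elsewhere. Both directions count much the same pairs, and file-named H3K27ac had more summits at gene ends (24.4% against 7.11%). The opposite order is therefore not a separate result. The sharing also rose with rank, from 18.0% to 18.5% at ranks 10001 to 20000 of file-named H3K4me1 to 42.0% to 52.6% in the first 1000. The first 1000 file-named H3K27ac summits lay at gene ends in 51.1% and 56.7%, and those of rank 10001 to 20000 in 16.2% and 17.2%. For file-named H3K4me1 the same shares were 5.90% to 6.50% and 7.44% to 7.86%. These shares are descriptions of libraries that share cells and annotation, with no test.

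Sites of both repeats were then put in classes. A both-mark locus was a file-named H3K4me1 site with a strong file-named H3K27ac summit within 1000 bp in both repeats, and there were 2774. A 1-mark locus had none of the 60000 strongest summits of the other mark, in either repeat, within 1000 bp. The libraries pool many cells, so marks carried by the same cells and marks carried by different cells cannot be told apart. The classes held 6709 file-named H3K4me1-only loci and 4695 file-named H3K27ac-only loci, and the remaining 5194 and 3611 sites had a weaker or unrepeated summit of the other mark. The number of file-named H3K27ac-only loci dropped to 1592 when every deposited file-named H3K4me1 summit was searched, because those lists are the longer ones. File-named H3K27ac-only is therefore a statement about strong H3K4me1 and not about its absence.

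The 3 classes lay in different places. Of both-mark loci 12.3% were at a gene end, 56.2% in a gene body and 31.5% between genes. File-named H3K4me1-only loci were at gene ends in 4.41%, in bodies in 55.9% and between genes in 39.7%, with a median of 32964 bp to a gene end. File-named H3K27ac-only loci were at gene ends in 39.6%, in bodies in 41.8% and between genes in 18.6%, with a median of 6490 bp, compared with 22698 bp for both marks. Chromosome 19, which holds 7.24% of protein-coding genes, held 6.35% of file-named H3K27ac-only loci, 4.51% of both-mark loci and 1.49% of file-named H3K4me1-only loci.

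Antibodies that the classes did not use were read at the same loci. A strong POLIIS2P summit lay within 1000 bp of 47.8% and 47.1% of both-mark loci in the 2 shLUC libraries, of 42.0% and 40.8% of file-named H3K27ac-only loci and of 9.72% and 9.38% of file-named H3K4me1-only loci. For HNRNPU in untransfected cells the shares were 61.8% and 63.2%, 46.0% and 45.6%, and 13.1% and 12.5%. Away from gene ends POLIIS2P lay at 43.4% and 42.6% of both-mark loci, 24.1% and 23.9% of file-named H3K27ac-only loci and 8.95% and 8.61% of file-named H3K4me1-only loci, and HNRNPU at 58.3% and 60.2%, 21.3% and 21.2%, and 12.5% and 11.7%. In each of these 4 libraries the order of the 3 classes was the same, with both-mark loci highest and file-named H3K4me1-only loci lowest. Over all file-named H3K27ac sites POLIIS2P lay at 45.4% and 44.1% and HNRNPU at 54.3% and 54.4%. The both-mark share of POLIIS2P was thus near that of all these sites. Away from gene ends all these sites had less than both-mark loci, 32.4% and 31.6% for POLIIS2P and 40.2% and 40.6% for HNRNPU. Over all file-named H3K4me1 sites POLIIS2P lay at 21.3% and 21.0% and HNRNPU at 28.2% and 28.0%. The loci are not replicates of a class, so no test was run.

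The classes were also read in the shHNRNPU libraries, which had no part in defining them. The 1-mark loci were chosen for a contrast of the same antibodies in control cells, so the direction of their differences was set in advance. Only the shares that held are informative, and the p-values at 1-mark loci add no support. Of the file-named H3K4me1-only loci, 80.1% ± 2.86 had strong H3K4me1 and 4.09% ± 1.82 had strong H3K27ac in their 1000 bp (SD, n = 4 libraries each), a difference of 76.0 points (exact permutation p = 0.0286). At file-named H3K27ac-only loci the shares were 0.351% ± 0.116 and 70.4% ± 1.98, a difference of −70.1 points (exact permutation p = 0.0286, n = 4 each). The lowest H3K27ac share there was 67.8%, and the highest H3K4me1 share was 0.490%. Both-mark loci had H3K4me1 in 90.6% ± 2.32 and H3K27ac in 79.9% ± 5.74, a difference of 10.6 points (exact permutation p = 0.0286, n = 4 each). In that last comparison the exact p was 0.0571 to 0.0857 with any 1 H3K4me1 library left out. The lowest value, 9.66 points, was without the second repeat of shHNRNPU#2, and without the repeats of shHNRNPU#1 or the first of shHNRNPU#2 the differences were 11.5, 10.9 and 10.5 points. Both-mark loci were placed at file-named H3K4me1 summits repeated within 250 bp, with file-named H3K27ac asked for only within 1000 bp. The control repeats also shared more of the former (73.4% against 55.1%). The definition thus favoured a higher H3K4me1 share, and the difference is not read as a property of the loci. The SDs also hold a gap between the pooled shRNAs. At both-mark loci H3K27ac was at 76.1% and 74.0% for shHNRNPU#1 and at 84.3% and 85.4% for shHNRNPU#2. At file-named H3K4me1-only loci H3K4me1 was at 78.4% and 77.1% against 81.8% and 83.2%.

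**Figure D3:**
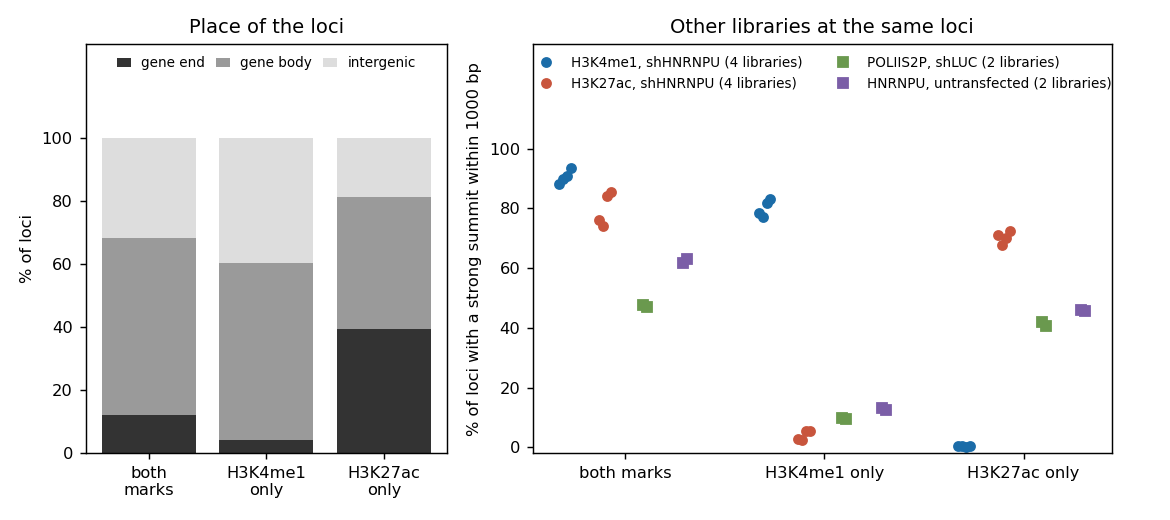
Left, share of each class of loci (y axis, percent) at a gene end, in a gene body or between genes, with classes by the file names of the shLUC libraries. Right, share of each class (y axis, percent) with a strong summit within 1000 bp in each library of 4 other sets, with 1 point per library. H3K4me1-only loci have H3K4me1 but little H3K27ac in shHNRNPU cells, H3K27ac-only loci the opposite, and POLIIS2P and HNRNPU are at 9.38% to 13.1% of H3K4me1-only loci.

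At protein-coding genes the file-named H3K27ac sites were the more frequent. Of 20037 genes, 5.42% had a file-named H3K4me1 site and 19.6% a file-named H3K27ac site within 1000 bp of an end. Both marks were at an end of 2.08% (416 genes), at the same end in 366 of them and at different ends alone in 50, file-named H3K27ac only at 10.4% (2086 genes) and file-named H3K4me1 only at 1.15% (231 genes). The count with file-named H3K27ac only dropped to 391 when all deposited summits were searched. With the 60000 strongest summits of both repeats the background was 19.4% for file-named H3K4me1 and 38.2% for file-named H3K27ac.

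The genes at the top of each class were chosen by their mean score percentile over the libraries. For both marks these were SELENOT, an endoplasmic reticulum selenoprotein, KANSL1, a subunit of a histone acetyltransferase complex, PELI1, the uncharacterised LOC124902805, with the marks at opposite ends, and TAF10, a subunit of the general transcription factor TFIID. SELENOT had file-named H3K4me1 summits of rank 223 and 530 and file-named H3K27ac summits of rank 128 and 207, all 110 to 118 bp outside the gene's start. At TAF10 the 4 summits lay 774 to 815 bp from the gene's stop, with rank 286 and 33 for file-named H3K4me1 and 310 and 585 for file-named H3K27ac. For file-named H3K27ac only they were EWSR1, FLCN, the lipoprotein receptor LSR, the Hedgehog coreceptor CDON and the zinc finger gene ZNF300. ZNF300 had ranks 15 and 5, with no file-named H3K4me1 summit of any rank at its ends in either repeat. EWSR1 had file-named H3K4me1 summits of rank 167050, at its stop, and 149905, at its start, both low in those lists. For file-named H3K4me1 only they were PDE1B, PPP1R1A, CD300LG, AJM1 and ACTL6B. PDE1B, a phosphodiesterase, and PPP1R1A, a phosphatase inhibitor, are neighbours whose ends share 1 site of rank 517 and 617. For PDE1B this end is the stop, and no strand was listed for PPP1R1A. ACTL6B, a subunit of the neuronal form of the BAF chromatin remodeller, had ranks 1233 and 401 at its stop. A file-named H3K27ac summit of rank 82732 lay there in the second repeat alone.

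Core pluripotency genes check the label of H1 cells. Of 20 such genes, 5 had a file-named H3K27ac site at an end and 2 a file-named H3K4me1 site, at backgrounds of 19.6% and 5.42%, so the counts were near those of other genes and say little about cell identity. L1TD1, which encodes an RNA-binding protein of pluripotent cells, had file-named H3K27ac summits of rank 100 and 133 and file-named H3K4me1 summits of only rank 78689 and 65900. TERF1, a telomere protein, carried both marks, with rank 2606 and 2722 for file-named H3K4me1 and 172 and 626 for file-named H3K27ac. ZIC2, a zinc finger regulator, had file-named H3K27ac of rank 8122 and 3774 and no file-named H3K4me1 summit. USP44, a deubiquitinase, had file-named H3K27ac of rank 2164 and 5371, with file-named H3K4me1 of rank 21947 and 40555. DNMT3B, a DNA methyltransferase, had file-named H3K27ac of rank 16532 and 10679, with file-named H3K4me1 of rank 50720 and 93698. CRIPTO (listed as TDGF1), a coreceptor of Nodal, had file-named H3K4me1 of rank 7108 and 15850 and file-named H3K27ac of rank 10602 in the second repeat alone.

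The remaining 14 core pluripotency genes had no site of both repeats at an end. POU5F1 had file-named H3K27ac summits of rank 18634 and 41835 and file-named H3K4me1 summits of rank 77717 and 135872. NANOG had file-named H3K4me1 of rank 12770 and 26440 and no file-named H3K27ac summit. At the ends of SOX2 the sole summit was file-named H3K4me1 of rank 146797 in the first repeat, although within 50000 bp of SOX2 there were 8 and 6 strong file-named H3K4me1 summits and 4 and 3 of file-named H3K27ac. LIN28A had file-named H3K4me1 of rank 26288 and 36163 and, at its opposite end, file-named H3K27ac of rank 25296 and 21678. LIN28B and OTX2 had no summit of either mark at an end. PRDM14 had file-named H3K27ac alone, of rank 33059 and 50955. SALL4 had file-named H3K27ac of rank 12381 in the first repeat and file-named H3K4me1 of rank 67026 in the second. TRIM71 had file-named H3K27ac of rank 33172 and 27492 and, at its opposite end, file-named H3K4me1 of rank 102078 and 53389. FOXD3 had file-named H3K27ac of rank 32749 and 20838 and, at its opposite end, file-named H3K4me1 of rank 102089 in the first repeat. ZSCAN10 had file-named H3K27ac of rank 60178 and 18809 and, at its opposite end, file-named H3K4me1 of rank 88017 in the second repeat. DPPA4 and GDF3 had file-named H3K4me1 alone, of rank 123880 and 125745 and of rank 136605 and 129004. The median core gene had 2 strong file-named H3K4me1 summits in both repeats and 3.0 and 2.5 of file-named H3K27ac within 50000 bp, compared with 1 in both repeats and 2 in both repeats over all protein-coding genes.

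Regulators of other cell states came next. None of the 12 mesendoderm regulators, such as EOMES and SOX17, and none of the 12 neural regulators, such as PAX6 and DLX5, had a site of either mark. The background was 19.6% for file-named H3K27ac and 5.42% for file-named H3K4me1, and for the latter a count of 0 of 12 is near it. Among the 60000 strongest of both repeats, file-named H3K4me1 was at an end of 4 mesendoderm and 2 neural regulators and file-named H3K27ac at 1 and 0, against backgrounds of 19.4% and 38.2%. EOMES, a T-box factor of early mesendoderm, had file-named H3K4me1 of rank 29937 and 14006 at its stop and no file-named H3K27ac summit. DLX5, a homeobox factor, had file-named H3K4me1 of rank 34662 and 29387 and no file-named H3K27ac. The 39 HOX genes had no site of either mark, where 5.42% and 19.6% of all genes had one. No strong file-named H3K27ac summit lay within 50000 bp of 39 HOX genes in the first repeat and 36 in the second, against 25.9% and 24.9% of all genes. For file-named H3K4me1 the counts without one were 15 and 13, near the 36.6% and 37.6% of all genes. Neighbouring HOX genes share much of these windows.

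Of 14 naive pluripotency genes 2 had a file-named H3K4me1 site and 1 a file-named H3K27ac site, and of 15 markers of differentiated cells 2 and 1, counts too small to set apart from the 5.42% and 19.6% of all genes. Among the naive genes, KLF4 carried file-named H3K4me1 only, of rank 16057 and 11758, with no file-named H3K27ac summit of any rank at its ends. These KLF4 summits lay 522 and 510 bp from its stop and not at its start. SUSD2, a surface protein, had file-named H3K4me1 of rank 5652 and 2916, with file-named H3K27ac of rank 33675 at its opposite end in the second repeat alone. ZFP42, a zinc finger factor, had file-named H3K27ac of rank 2824 and 2076, with file-named H3K4me1 of rank 54103 and 51487. Among the markers of differentiated cells, TNNT2, cardiac troponin T, carried both marks, with file-named H3K4me1 of rank 5381 and 3283 and file-named H3K27ac of rank 511 and 1135. COL1A1, a collagen, had file-named H3K4me1 only, of rank 4473 and 13117. The other 13 had no site.

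Signalling pathways of pluripotent cells were represented by a few members each, and the counts are to be read against the 19.6% of all genes with a file-named H3K27ac site, 5.42% with file-named H3K4me1, 10.4% with file-named H3K27ac only and 2.08% with both. In the FGF pathway, 2 of 13 genes had a file-named H3K27ac site only, near the background, the ligand FGF2, of rank 9446 and 5114, and the feedback inhibitor SPRY2, of rank 3088 and 6569. FGFR4, a receptor, had file-named H3K4me1 of rank 7048 and 15220 at its start, with file-named H3K27ac of rank 9226 and 33469 at its other end. In the Nodal pathway 4 of 12 genes had a file-named H3K27ac site. ACVR2B, a receptor, had ranks 13953 and 7512, SMAD2, a signal transducer, 13336 and 15311, and SMAD4, its partner, 9225 and 3522. FOXH1, the DNA-binding partner of SMAD proteins, carried the marks at opposite ends, with rank 19604 and 11904 for file-named H3K4me1, 922 and 923 bp from an end, and 10813 and 10233 for file-named H3K27ac, 27 and 199 bp from the other. LEFTY1, a Nodal inhibitor, had file-named H3K4me1 of rank 8066 and 13857, with file-named H3K27ac of rank 39833 in the second repeat alone. In the Wnt pathway TCF7L1 carried both marks, CTNNB1, the signal transducer, file-named H3K27ac only, of rank 18871 and 10966, and RNF43, a ligase that removes Wnt receptors, file-named H3K4me1 of rank 13507 and 6068 at its start, with file-named H3K27ac of rank 18823 and 26664 at its other end. The other 10 of 13 Wnt genes had no site.

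File-named H3K27ac sites were frequent at genes used by every cell. They were at an end of 56 of 82 ribosomal protein genes and 18 of 39 proteasome subunit genes, against a background of 19.6%, with file-named H3K4me1 sites at 2 and 3, against 5.42%. File-named H3K27ac only was found at 33 and 12 of them, against 10.4%. Of 16 enzymes and readers of these marks, 10 had a file-named H3K27ac site and none a file-named H3K4me1 site. EP300, the acetyltransferase that places H3K27ac, had file-named H3K27ac of rank 989 and 555, and HDAC2, a deacetylase that removes acetyl groups, had rank 105 and 108 with file-named H3K4me1 of rank 7334 and 35818. CREBBP, KDM1A, KDM5C, KDM6A, KMT2A and NCOR1 were among the others with file-named H3K27ac only. KMT2D, which places H3K4me1, had file-named H3K27ac of rank 7115 and 6459, with file-named H3K4me1 of rank 30583 and 70875, all at its stop.

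Large gene families were read against the same backgrounds, 19.6% for a file-named H3K27ac site, 5.42% for file-named H3K4me1, 10.4% and 1.15% for each mark only and 2.08% for both. Of 240 zinc finger genes of chromosome 19, 79 had a file-named H3K27ac site and 8 a file-named H3K4me1 site, 52 with file-named H3K27ac only and 2 with file-named H3K4me1 only, and 4 had both marks. The shares with file-named H3K27ac were above the background, and those with both marks or file-named H3K4me1 only were near it. Of 392 olfactory receptor genes 1 had a file-named H3K27ac site and none a file-named H3K4me1 site. Of 53 clustered protocadherin genes 1 had a file-named H3K27ac site, and the median member had 4 strong file-named H3K27ac summits in both repeats within 50000 bp and 1 and 2 of file-named H3K4me1, where the median over all genes was 2 and 1 in both repeats. Neighbouring members share these windows. The lists were chosen with earlier results of these data known, and the counts were not tested.

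**Figure D4:**
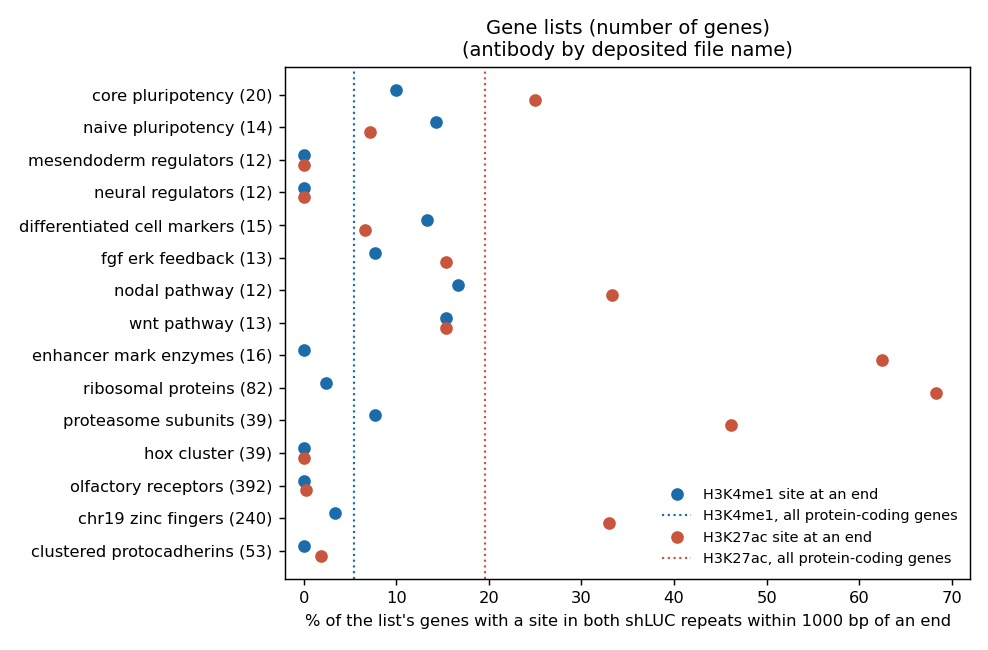
Share of the genes of each list (x axis, percent) with a site in both shLUC repeats within 1000 bp of an end, by the file names of the libraries, with the number of genes in each list in brackets. Dotted lines are the shares over all 20037 protein-coding genes, 5.42% for H3K4me1 and 19.6% for H3K27ac, and ribosomal protein, enzyme and proteasome genes lie farthest above the H3K27ac line.

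More than 10000 bp from any gene end there were 4838 file-named H3K4me1-only, 2103 file-named H3K27ac-only and 1882 both-mark loci. The strongest file-named H3K4me1-only locus of this kind, chr4:186133068, lay in the body of FAM149A with ranks 4 and 29, and next came loci in CCDC85C (chr14:99563343, ranks 28 and 39), ACVR1 (chr2:157839209, ranks 48 and 28) and INTS3 (chr1:153749571, ranks 30 and 54) and a locus at chr6:41456487, 89894 bp from FOXP4. ACVR1 encodes a receptor of bone morphogenetic proteins and INTS3 a subunit of the Integrator complex. All 5 had strong H3K4me1 in the 4 shHNRNPU libraries of that antibody, and INTS3 had strong H3K27ac in 2 and the locus near FOXP4 in 1 of the 4 H3K27ac libraries. The strongest file-named H3K27ac-only loci were chr19:37293679, 19158 bp from ZNF875 and of rank 1 in both repeats, and chr3:93470697, 402354 bp from PROS1 (ranks 16 and 27). After them came chr2:90250509, 108810 bp from LOC124905368 (ranks 22 and 36), and chr1:16514438, 24548 bp from LOC124903856 (ranks 44 and 79). The last was chr1:182869439, in the body of the helicase gene DHX9 (ranks 83 and 57). Whether reads can be placed with certainty at these loci was not checked. These 5 had strong H3K27ac in all 4 and strong H3K4me1 in none of the shHNRNPU libraries.

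The strongest both-mark loci away from genes were chr21:8234503, with ranks 1 and 1 for file-named H3K4me1 and 2 and 2 for file-named H3K27ac, and chr21:8420458, with ranks 2 and 2 and 3 and 3. They and a further locus at chr21:8464736 lay among annotated copies of the ribosomal RNA precursor gene, where reads from many near-identical copies cannot be placed with certainty, so these values are uncertain. Next came chr15:92831977, 68347 bp from the chromatin remodeller gene CHD2, with ranks 46 and 16 and 116 and 106, and a locus 22808 bp from ODF1 with ranks 3 and 3 and 201 and 83. Each of these had strong summits of both marks in all shHNRNPU libraries.

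Single genes held many loci of 1 kind. MAD1L1, which encodes a protein of the spindle checkpoint and spans 417 kb of chromosome 7, held 22 file-named H3K27ac-only loci and no both-mark or file-named H3K4me1-only locus, and the next 6 genes, ARHGEF10 and BRF1 among them, held 6 each. Between its ends lay 37 and 46 strong file-named H3K27ac summits in the control libraries, more than in any other gene of those libraries, and the next count in the first repeat was 19, in PTPRN2. In shHNRNPU libraries there were 33, 39, 29 and 25 strong H3K27ac summits. File-named H3K4me1 had 3 and 3 in control cells and 0, 4, 1 and 0 in shHNRNPU cells, and POLIIS2P had 1 and 1 and HNRNPU 1 and 2. Weaker H3K4me1 was present, with 55 and 64 deposited file-named H3K4me1 summits of any rank. MAD1L1 was chosen for its file-named H3K27ac-only loci in the control libraries, so the gap between the 2 antibodies in those libraries follows from that choice.

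PRKG1, a protein kinase gene that spans 1307 kb, held the most file-named H3K4me1-only loci, 11. It had 18 and 16 strong file-named H3K4me1 summits and 3 and 5 of file-named H3K27ac in control cells, and 14, 11, 13 and 13 of H3K4me1 and 4, 4, 5 and 5 of H3K27ac in shHNRNPU cells. ARID1B, a subunit of the BAF remodeller, and DAB1, an adaptor of reelin signalling, each held 10, a count that 2 further genes also reached. ARID1B was the less one-sided of these, with 22 and 21 strong file-named H3K4me1 summits and 8 and 10 of file-named H3K27ac, and DAB1 had 23 and 20 against 4 and 5. Long genes have more room for loci, and the counts were not divided by length.

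**Figure D5:**
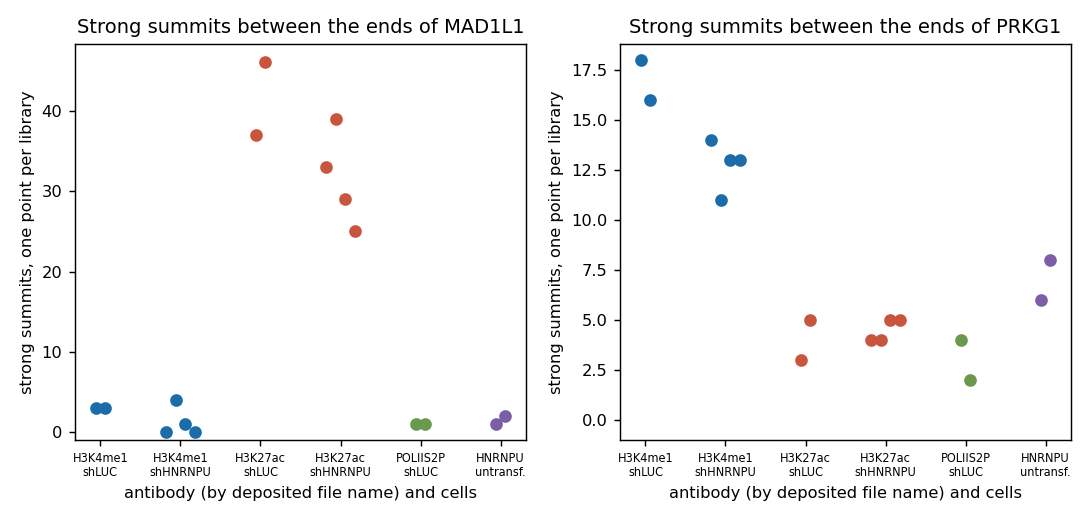
Strong summits between the ends of MAD1L1 (left) and PRKG1 (right), as a count (y axis) for each library (points), by antibody and cells (x axis), with shLUC antibodies by file name. In MAD1L1 the 6 H3K27ac libraries have 25 to 46 and the 6 H3K4me1 libraries 0 to 4, and in PRKG1 the order is the opposite.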

How the data were processed

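CUT&Tag summit lists of 17 libraries from H1 cells were the starting point, of which 16 were read. Per the labels, processing used cutadapt, Bowtie2, SAMtools, MACS2 and deepTools with the hg38 build, and their versions, options and control library are not given in the sources used here. The publication listed with the series concerns mouse cells and was not taken as a source of methods. The deposited score of each summit was read as a −log10 of a p- or q-value, since the histone lists begin at 2.00 to 2.01 and those of POLIIS2P and HNRNPU at 1.30, and it was used only to rank summits within a list. Lists were taken as called per library. Depth was unknown, so precision rests on repeats. One POLIIS2P library of shHNRNPU cells and an HNRNPU interval list of the whole series were not used here.

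Antibodies of the shLUC histone libraries were taken from the deposited file names, against the sample titles. Summits were matched to 20037 protein-coding genes of the RefSeq table for GRCh38.p14 (chromosomes 1 to 22, X and Y). Strand and starts came from the RefSeq promoter table, which covered 15843 of them. A gene end is the first or last base of the gene, and within 1000 bp counted as at the end. The strongest 20000 summits per library were used, repeats were matched within 250 bp, and a mark was called absent when none of the 60000 strongest summits of either repeat lay within 1000 bp. Groups of libraries were compared with two-sided exact permutation tests, over 6 assignments in shLUC and 70 in shHNRNPU cells. Members and gene lists were chosen with earlier results of these data known. Named genes were all core pluripotency genes, members of the other lists with a site, the top 5 genes and top 5 distant loci of each class by mean score percentile, and the 3 genes with the most loci of each 1-mark class. PTPRN2 and the listed genes without a site were named after their values were seen. A few genes that this rule takes are not reported here. The printed promoters were, of each class, the 2 with the lowest mean rank among starts with the summits of both repeats in the 250 bases. Counting steps were tested on simulated positions. Python 3.11.15, numpy 2.4.6 and pandas 2.3.3 were used. Alternatives changed list length, distances, search depth, antibody names and repeats.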

Additional observations from a re-analysis of the deposited data

How the results depend on the processing

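Exchanging the antibody names of the control libraries for those of the titles turned the difference in gene-end share to 17.3 points, in log2 distance to −0.96 and in neighbour share to −3.44, and gave 231 genes with H3K27ac only and 2086 with H3K4me1 only at an end. Both-mark loci, which are counted from H3K4me1 sites, then numbered 2715 instead of 2774. The counts of loci and genes followed the list length by construction. With 10000 or 40000 strongest summits there were 1130 or 6794 both-mark, 2958 or 15430 H3K4me1-only and 2216 or 10429 H3K27ac-only loci, 124 or 1123 genes with both marks and 103 or 591 with H3K4me1 only, and the shared summits made up 19.3% or 28.8% of H3K4me1 (main value 24.0%) and 19.2% or 28.4% of H3K27ac (main value 23.9%). With marks matched within 2000 bp they made up 25.5% and 25.2%. With gene ends widened to 2500 bp there were 717 genes with both marks and 408 with H3K4me1 only. A search of all deposited summits left 1592 H3K27ac-only loci and 391 genes with H3K27ac only. Leaving out 1 repeat removes the need for a summit in both, and gave 4588 to 5025 both-mark, 10988 to 12339 H3K4me1-only and 10756 to 11173 H3K27ac-only loci, 725 to 733, 3271 to 3690 and 423 to 545 genes with both marks, H3K27ac only and H3K4me1 only, and shared summits of 22.9% to 25.1% and 22.8% to 25.0%. In shHNRNPU cells, leaving out 1 library gave neighbour differences of 2.76 to 3.59 points and differences at both-mark loci of 8.65 to 12.4 points. The gene-end and distance differences kept an exact permutation p of 0.0286. So did the 1-mark differences, but their direction was set in advance and this p adds no support. With the replicate block, the shHNRNPU differences were unchanged in size at −14.2, 0.77, 3.18, 76.0, −70.1 and 10.6, each with an exact p of 0.125, the smallest that 4 pairs allow. Deviations of libraries with the same repeat number correlated at −0.011 to 0.023, and not every library correlated best with its own number, so the numbers were not taken as pairs. Of 160 recomputed values, 38 moved, 11 lost significance and 3 were reversed. The other 108 kept their direction and side of the threshold, stayed within 1.5 times for counts, or moved by less than 1 SD. Of these, 17 are shLUC tests that could not pass at any value and show no stability. The tests at 1-mark loci among the 108 show none either, because their direction was set in advance. Unknown depth limits every statement that a mark was absent.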
